A study of Homo sapiens with 6 samples.

Results

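The genes described here encode the transport and gating machinery of the primary cilium. They were chosen by a rule on their symbols, with earlier results of these data known. They carry a symbol made of IFT, BBS, B9D, TCTN or NPHP and a number, or are WDR19, WDR34, WDR35 or WDR60. Of the 28395 genes in the table, 34 met this rule, and all 34 were among the 14215 genes expressed highly enough to be tested.

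The primary cilium is a single antenna of microtubules that many resting cells grow from the mother centriole and take down again before they divide. Intraflagellar transport (IFT) builds it: kinesin-2 carries trains of the IFT-B complex to the tip, and dynein-2 with the IFT-A complex brings them back. The BBSome, named after Bardet-Biedl syndrome, moves membrane proteins in and out, while the MKS and NPHP proteins of the transition zone form the gate at the base.

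The cell line HCC827 was established from a human lung adenocarcinoma and carries an activating deletion in the gene of the EGF receptor, and erlotinib is a small molecule inhibitor of that receptor's kinase. The cells of one group received the vehicle DMSO and those of the other 1 μM erlotinib, in both cases for 24 h in medium with serum, and RNA-seq was performed on 3 libraries of each. DMSO libraries held 20858083, 24641819 and 21172884 reads on genes, and the libraries with erlotinib held 21944007, 20760204 and 21678395. The epithelial markers EPCAM (mean signal 9852 in DMSO and 9485 with erlotinib) and CDH1 (27824 and 30609) were abundant in both groups. Of 7 epithelial markers 0 were higher and 5 lower in the test described next (beside 35.3% and 35.4% of all tested genes). The most abundant was KRT7, with a mean signal of 123686 in DMSO and 79897 with erlotinib.

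Values are given as signal, which is reads divided by the size factor of the library, in the order of DMSO libraries 1, 2 and 3 and erlotinib libraries 4, 5 and 6. Changes are given as log2FC, the difference erlotinib minus DMSO on the log2(signal + 1) scale, with its standard error (SE), from limma fitted over all tested genes with Benjamini-Hochberg adjustment and a threshold of 0.05. A single number in parentheses after a gene, or after rose by or fell by, is its log2FC. Nothing in the labels says that the libraries came from separate cultures, so the p-values measure only the spread between these samples. DMSO library 2 stood farthest from its replicates: the chi-square per degree of freedom was 22.9 against DMSO library 1 and 14.4 against DMSO library 3, and 4.05 to 7.61 for the other replicate pairs. Without it 20 of the primary cilium genes were called higher and 1 lower.

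With erlotinib, 22 of the 34 primary cilium genes were higher and 0 were lower by the limma test. Among all tested genes 35.3% were higher, 35.4% lower and 70.7% either. At an unadjusted p under 0.05, 22 genes were higher and 1, BBS7, was lower, and edgeR, DESeq2 and limma-voom each called 22 higher and 0 lower. The median log2FC of the 34 genes was 0.67, beside 0.02 for all tested genes, and 31 of the 34 values were positive. The erlotinib libraries all lay above the DMSO libraries for 24 genes (36.7% of all tested genes) and all below them for 1 (36.9%). A rise of at least 1 log2 unit past the threshold was found for 8 genes, against 17.0% of all tested genes. The summed signal of all 34 genes was 11864, 11793 and 12202 in the DMSO libraries and 17656, 17001 and 16950 in the erlotinib libraries. In a bulk sample, a change in the share of cells that express a gene and a change in its RNA per cell cannot be told apart.

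The steepest rises belonged to IFT140 and BBS1, which ranked 1298 and 1326 from the top among the 14215 tested genes, so that many genes outside the cilium rose more. Scaling each library to its total count in place of the size factors moved the median of all tested genes from 0.02 to 0.19 and that of the 34 genes from 0.67 to 0.85. Under that scaling 29 of the 34 were called higher and 0 lower, beside 6156 higher and 3955 lower among all 14215 tested genes. The 34 genes lie on 17 chromosomes.

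**Figure D1:**
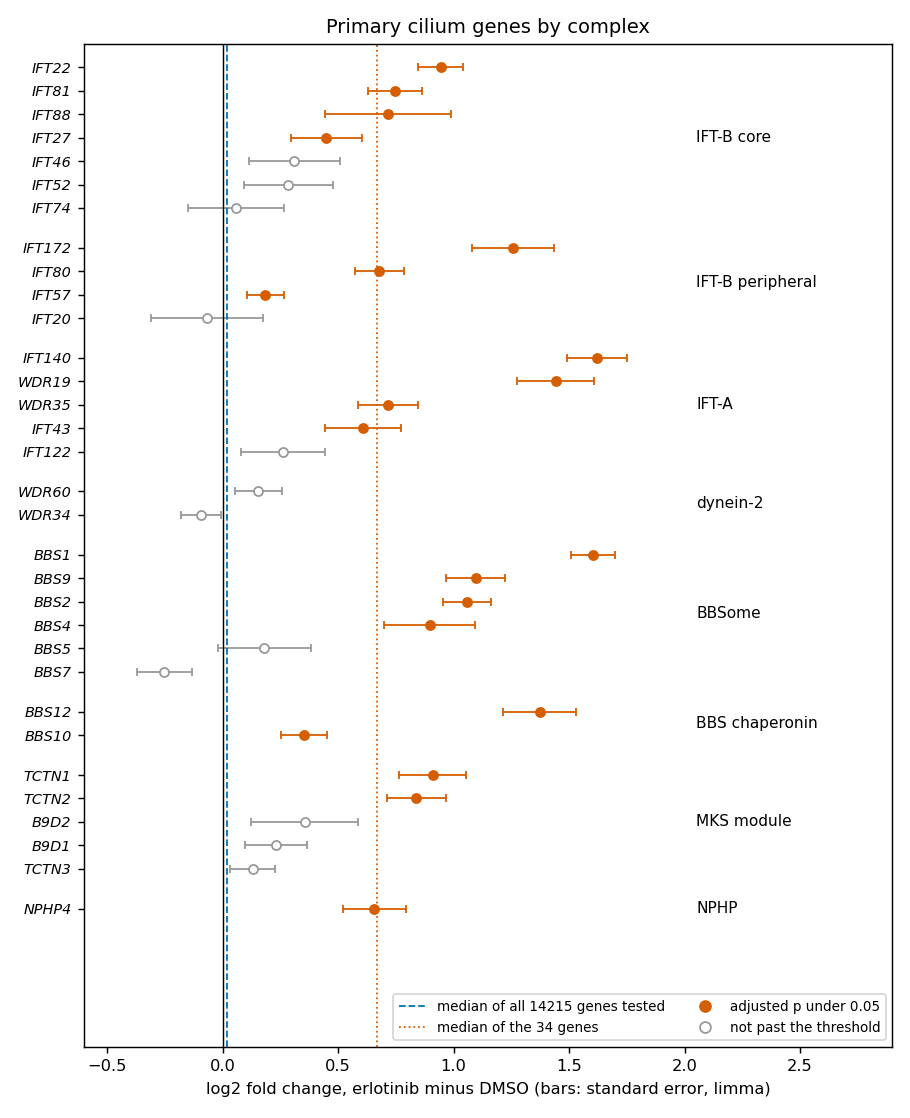
Log2FC (erlotinib minus DMSO) of 32 of the 34 primary cilium genes by complex, with the standard error from limma as bars. Filled points are the 20 genes past an adjusted p of 0.05, open points the other 12, and the vertical lines mark the median of all 14215 tested genes (0.02) and of the 34 genes (0.67); IFT20 and WDR34, both open, lie below 0 here and above it when libraries are scaled to their total.

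IFT-A, the complex that turns trains around for the return trip and lets membrane proteins into the cilium, held the largest change. Of its 5 genes chosen by symbol, 4 rose (IFT140, WDR19, WDR35 and IFT43), beside 35.3% of all tested genes. IFT140 (Entrez gene 9742, chromosome 16, 1510427 to 1612072 of GRCh38), a core subunit, had a signal of 220.1, 220.1 and 314 in DMSO and of 804, 782 and 709 with erlotinib. Every erlotinib library held more than any DMSO library by a wide margin. The mean went from 251 ± 54.0 to 765 ± 49.9 (SD, n = 3 each) (log2FC 1.62, SE 0.13, adjusted p = 6.68e-10, limma). WDR19 (Entrez gene 57728, chromosome 4, 39182529 to 39285810), also known as IFT144 and another core subunit, gave 102, 82.7 and 85.6 in DMSO against 233, 247 and 258. The groups stood well apart again (log2FC 1.44, SE 0.17, adjusted p = 1.44e-07, limma). The rises of WDR35 (0.72) and IFT43 (0.61), of the peripheral part of IFT-A, were smaller. IFT122, the core subunit with the smallest change, had a signal of 105, 151 and 140.2 in DMSO and of 171, 163 and 139 with erlotinib. These values overlapped, and the log2FC of 0.26 (adjusted p = 0.208, limma) did not pass the test.

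The IFT-B core is the backbone of the anterograde train, onto which cargo such as tubulin is loaded. Of its 7 genes chosen by symbol, 4 rose, beside 35.3% of all tested genes: IFT22, IFT81, IFT88 and IFT27. The 4 became 2 without erlotinib library 4 or at an adjusted p under 0.01. IFT22 (Entrez gene 64792, chromosome 7, 101310914 to 101321823), a small GTPase-like subunit, led with 547, 588 and 472 in DMSO and 1016, 1049 and 1016 with erlotinib. The erlotinib values were nearly equal and far above the DMSO values (log2FC 0.94, SE 0.10, adjusted p = 2.74e-08, limma). IFT81, which pairs with IFT74 to bind tubulin, rose by 0.75 on the log2 scale, whereas IFT74 itself had a signal of 115, 119 and 79.2 in DMSO and 119, 96.0 and 107 with erlotinib. The IFT74 values overlapped throughout (log2FC 0.06, adjusted p = 0.812, limma), and the sign turned when DMSO library 3 (-0.13) or erlotinib library 4 (-0.02) was left out. IFT88, the subunit whose loss leaves cells without cilia, was the least abundant of the 34 genes per kilobase in DMSO. Its signal of 54.5, 43.6 and 31.0 in DMSO and 67.4, 71.3 and 70.2 with erlotinib did not overlap, with an adjusted p of 0.0241 (limma) that was lost in 4 of the 6 fits without 1 library (0.0523 to 0.101). IFT27, a small GTPase that links the train to the BBSome, had a log2FC of 0.45, and its adjusted p of 0.0135 became 0.0747 without DMSO library 2 and 0.0672 without erlotinib library 4. IFT46 (0.31) and IFT52 (0.28) did not pass the test.

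Among the 4 peripheral IFT-B genes, which tie the kinesin-2 motor to the train, IFT172, IFT80 (0.68) and IFT57 rose (beside 35.3% of all tested genes). IFT172 (Entrez gene 26160, chromosome 2, 27444377 to 27489743), the largest IFT-B subunit, gave 104, 78.9 and 98.5 in DMSO and 194, 239 and 243 with erlotinib. The groups did not come near each other (log2FC 1.26, SE 0.18, adjusted p = 2.35e-06, limma). IFT57, the most abundant IFT gene per kilobase, went in signal from 1324 ± 67.0 to 1507 ± 111 (SD, n = 3 each), and its log2FC of 0.19 passed narrowly (adjusted p = 0.0478, limma) and no longer did in 5 of the 6 fits that left out 1 library (up to 0.260). IFT20, which also works at the Golgi to send membrane proteins toward the cilium, had a signal of 81.7, 71.5 and 79.2 in DMSO and 76.6, 96.0 and 54.3 with erlotinib. The erlotinib libraries surrounded the DMSO libraries, and the log2FC of -0.07 was 0.11 when libraries were scaled to their total and 0.15 without erlotinib library 6.

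The dynein-2 intermediate chains WDR60 and WDR34 did not pass the test with the size factors. WDR60 had a signal of 459, 488 and 461 in DMSO and 536, 528 and 505 with erlotinib, without overlap but with a log2FC of 0.15 (adjusted p = 0.183, limma), which was 0.33 and passed when libraries were scaled to their total (adjusted p = 0.00724, limma). WDR34 was the most abundant of the 34 genes per kilobase, with a signal of 2813, 2128 and 2534 in DMSO and 2397, 2397 and 2173 with erlotinib. These ranges overlapped, with a log2FC of -0.09 (adjusted p = 0.347, limma) that was 0.086 when libraries were scaled to their total and -0.20 without DMSO library 2 (adjusted p = 0.00796, limma).

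**Figure D2:**
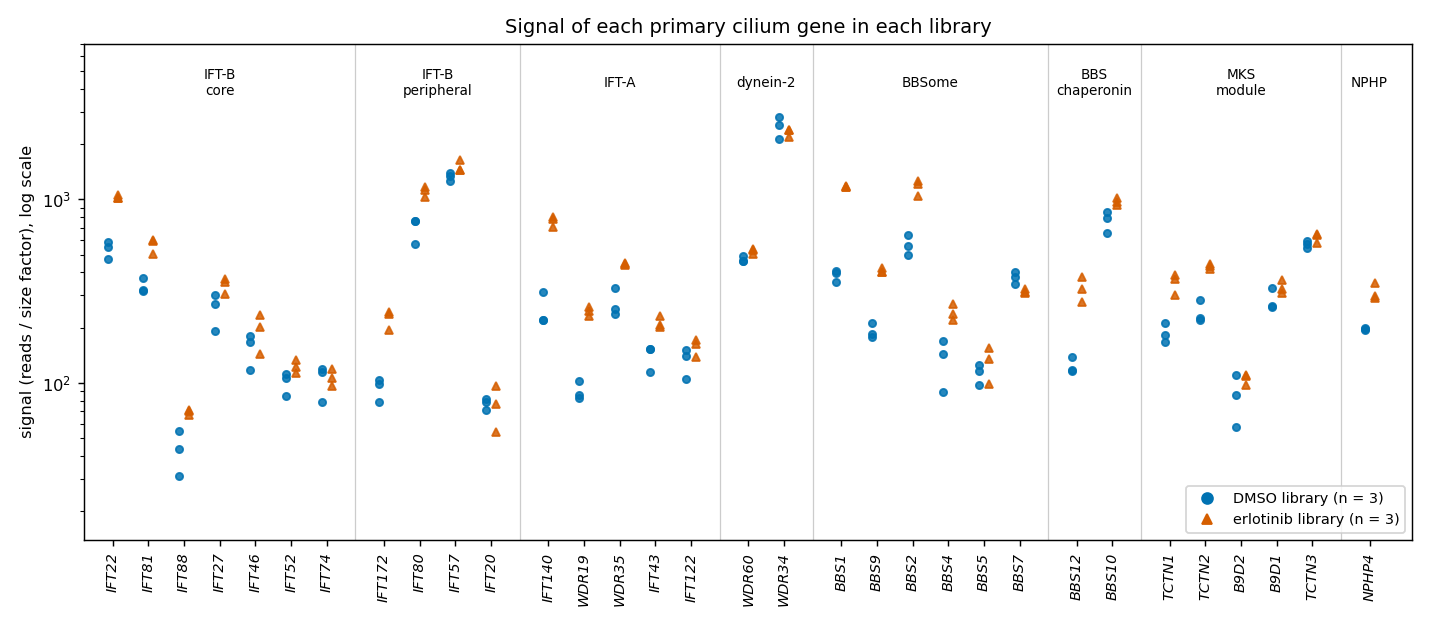
Signal (reads divided by the size factor, log axis) of 32 of the 34 genes in each library, with DMSO libraries as circles and erlotinib libraries as triangles, grouped by complex. The triangles lie wholly above the circles for 22 of these genes, among them BBS1 (1167 to 1187 against 357 to 409), and wholly below them for BBS7 (308 to 325 against 348 to 403).

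The BBSome is a coat that rides on IFT trains and carries signalling receptors out of the cilium. BBS1, BBS9, BBS2 and BBS4 rose, 4 of the 6 BBSome genes chosen by symbol (beside 35.3% of all tested genes). BBS1 (Entrez gene 582, chromosome 11, 66510635 to 66533598), the subunit that meets the GTPase ARL6 at the membrane, had a signal of 395, 357 and 409 in DMSO and 1167, 1187 and 1169 with erlotinib. The replicates were tight and the mean was 3.04 times that of DMSO (log2FC 1.60, SE 0.09, adjusted p = 3.85e-12, limma), the smallest adjusted p of the 34 genes. BBS9 (Entrez gene 27241), a scaffold of the complex, gave 185, 211 and 178 in DMSO against 401, 425 and 399.7. BBS2 (Entrez gene 583), which contacts BBS7 and BBS9 in the complex, gave 500.3, 636 and 557 against 1211, 1044 and 1265. Both genes roughly doubled without overlap, with log2FC values of 1.10 (SE 0.13) and 1.06 (SE 0.10). BBS4, a subunit that binds centriolar satellites, rose by 0.90. BBS7 had a signal of 379, 403 and 348 in DMSO and 325, 308 and 314 with erlotinib. Every erlotinib library was below every DMSO library, yet the log2FC of -0.25 (SE 0.12) gave an adjusted p of 0.0624 (limma), which was 0.0410 without DMSO library 3 and 0.0456 with TMM factors in limma. When libraries were scaled to their total, the log2FC of BBS7 was -0.074 (adjusted p = 0.587, limma). BBS5, the lipid-binding subunit, had overlapping groups and a log2FC of 0.18 (adjusted p = 0.435, limma).

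Both chaperonin-like BBS genes chosen by symbol rose (beside 35.3% of all tested genes). These proteins help to fold and assemble the BBSome. BBS12 (Entrez gene 166379, chromosome 4, 122700442 to 122744939) had a signal of 117, 139 and 118 in DMSO and 277, 377 and 323 with erlotinib (log2FC 1.37, SE 0.16, adjusted p = 1.23e-07, limma). BBS10 changed less, from 651, 853 and 789.9 to 1013, 927 and 972. The groups of both genes were separate, and the log2FC of BBS10 was 0.35 (adjusted p = 0.00387, limma).

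At the transition zone, NPHP4 rose, and so did 2 of the 5 MKS module genes chosen by symbol (beside 35.3% of all tested genes). NPHP4, a protein of the gate, gave 199, 196 and 195 in DMSO against 349, 289 and 296 with erlotinib, a rise of 0.66 on the log2 scale. No library of either group crossed into the other. TCTN1 (Entrez gene 79600, chromosome 12, 110614129 to 110649430), a tectonic of the MKS module, gave 182, 168 and 212 in DMSO and 388, 302 and 369 with erlotinib (log2FC 0.91, SE 0.14, adjusted p = 1.04e-05, limma). The related TCTN2 rose by 0.84, but the third tectonic, TCTN3, gave 591, 567 and 543 against 646, 638 and 579. Its groups overlapped by 1 library (log2FC 0.13, adjusted p = 0.244, limma). B9D2 (0.36) and B9D1 (0.23), both B9 domain proteins of the same module, had overlapping groups and did not pass the test.

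The 34 genes spanned a wide range of levels. Per kilobase of the canonical transcript, the mean DMSO signal ran from 15.1 for IFT88 to 1367 for WDR34, with a median of 84.2. This compares levels between genes only roughly, because the reads were mapped without spliced alignment. In that order, 28 of the 33 neighbouring pairs lay closer than the sum of their SDs. By signal, 19 of the 34 genes fell into the second quartile of all tested genes, and 14 of these were called higher, where 40.3% of all genes of that quartile were. Of the 7 genes in the third quartile 6 were called higher (31.0% of all genes), of the 7 in the lowest quartile 2 (41.9%), and of the 1 in the highest, WDR34, 0 (27.9%). The smallest read number of any of these genes in any library was 29.

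**Figure D3:**
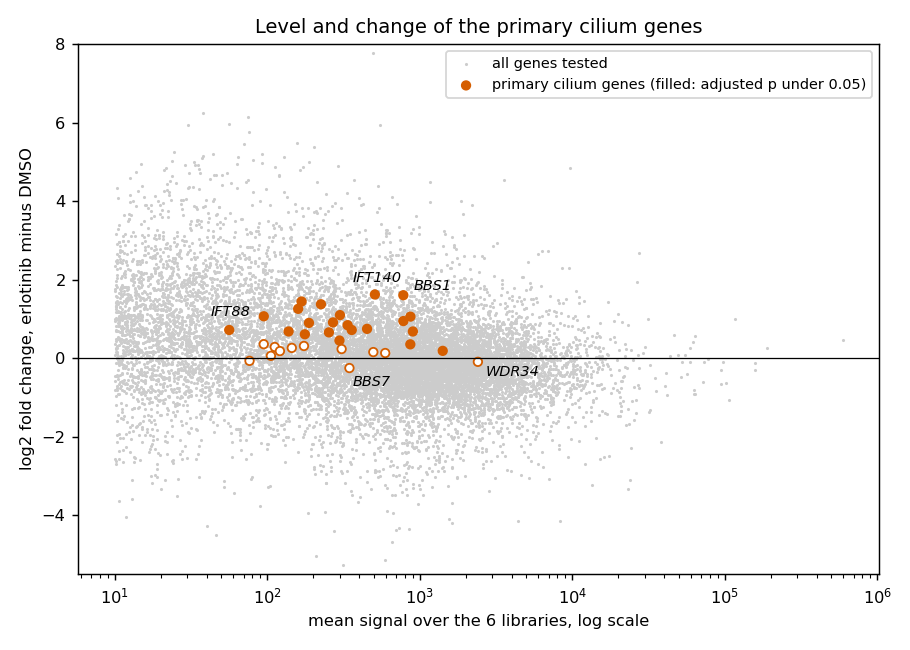
Log2FC (erlotinib minus DMSO) against the mean signal over the 6 libraries (log axis) for all 14215 tested genes in grey and for the 34 primary cilium genes, filled where the adjusted p was under 0.05. The 34 genes span mean signals of 56.3 to 2407 and log2FC values of -0.25 to 1.62, inside the cloud of all genes.

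Neighbouring genes share sequence with some of these genes, and the strand of counting is not stated, so that reads in an overlap cannot be assigned to either gene with certainty. Of the 34 genes, 14 overlap another gene of the table, 8 of them called higher (median log2FC 0.79). The other 20 overlap none, 14 of them called higher (median 0.63), and 35.3% of all tested genes were higher. ZDHHC24, which covers 56.5% of the BBS1 span, had a mean signal of 792 and rose by 0.47 on the log2 scale, less than BBS1. OGFOD1, over 17.5% of BBS2, had a log2FC of -1.35, and LOC101927746, over 3.90% of IFT22, one of -1.33, both opposite in sign to the cilium gene. Some neighbours were more abundant than the cilium gene and, with the size factors, shared its sign. TMEM97, over 5.04% of IFT20, had a mean signal of 1006 beside 76.6 and a log2FC of -1.67. SET, over 2.04% of WDR34, had 16165 beside 2407 and -0.76, and KRTCAP3, over 4.64% of IFT172, 561 beside 160 and 0.24. IFT46, at 174, overlaps ARCN1 (signal 6379, log2FC -0.46) and TMEM25 (signal 449), which rose more than IFT46. The part of shared reads in these values was not tested. No transcript of the 34 genes had a second place in the genome at 97% identity over 90% of its length.

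The symbols cover each complex only in part, so the remaining subunits were drawn in from lists of known partners. The grouping into whole complexes was written after the values had been seen. Of 27 partner genes under other symbols in the same complexes, 9 were higher and 5 lower, with a median log2FC of 0.04 (35.3% and 35.4% of all tested genes were higher and lower), against 19 of 31 higher, 0 lower and a median of 0.61 for the genes chosen by symbol in these complexes. When libraries were scaled to their total, 13 of the partner genes were higher and 3 lower, with a median of 0.21. Among all 14215 tested genes 6156 were then higher and 3955 lower. In IFT-B, CLUAP1 (also IFT38) rose by 1.20 while HSPB11 (also IFT25), the partner of IFT27, had a log2FC of -0.87 (adjusted p = 0.00174, limma). In IFT-A, TTC21B (also IFT139) fell to 169.8 from 225 while IFT140 rose, but the fall did not pass the test when libraries were scaled to their total (log2FC -0.22, adjusted p = 0.195, limma). In dynein-2, the light intermediate chain DYNC2LI1 rose by 1.15, and the heavy chain DYNC2H1, the motor itself, had a signal of 499, 572 and 453 in DMSO and 305, 263 and 325 with erlotinib. These DYNC2H1 groups were separate, with a log2FC of -0.77 (adjusted p = 1.35e-05, limma).

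MKKS, the third chaperonin-like BBS protein, went the other way from BBS10 and BBS12: its signal was 1795, 2072 and 1951 in DMSO and 990.2, 961 and 928 with erlotinib (log2FC -1.01, adjusted p = 4.63e-10, limma). The BBSome subunits TTC8 and BBIP1 did not pass the test. For kinesin-2, which drives the trains outward, 3 of 5 genes rose and 0 fell (beside 35.3% and 35.4% of all tested genes). KIFAP3 rose by 0.98, KIF3B by 0.39 and KIF3C by 0.37, while KIF3A had a log2FC of -0.0044 (adjusted p = 0.970, limma). Of the 14 genes of the MKS module with its partners 4 were higher, including MKS1 (0.94), and 1, TMEM237 (-0.37), was lower (beside 35.3% and 35.4% of all tested genes). When libraries were scaled to their total, 10 were higher and 0 lower, beside 6156 higher among all 14215 tested genes.

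**Figure D4:**
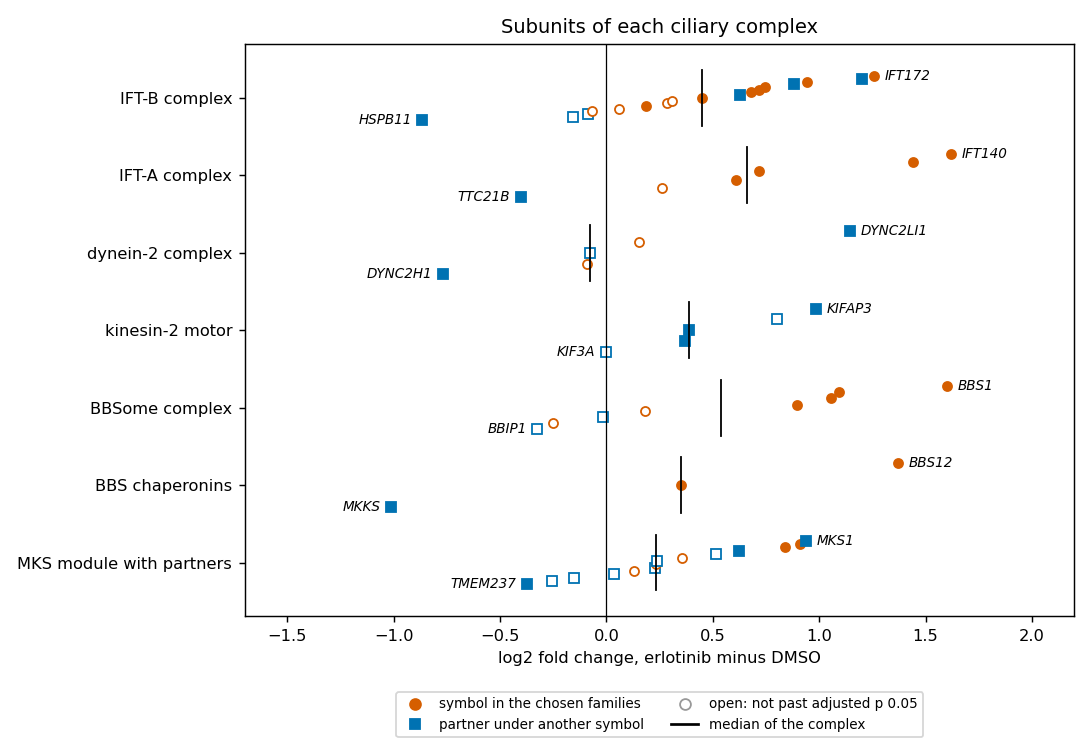
Log2FC (erlotinib minus DMSO) of the subunits of each ciliary complex, with circles for genes chosen by symbol, squares for partners under another symbol, filled shapes past an adjusted p of 0.05 and a line at the median of each complex. HSPB11, TTC21B, DYNC2H1, MKKS and TMEM237 are filled squares left of 0 in complexes whose other subunits include filled shapes to its right. TTC21B and TMEM237 do not pass the test when libraries are scaled to their total. The median of dynein-2 (-0.08) is 0.10 under that scaling.

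Over the whole lists of partners, to be read against 35.3% higher and 35.4% lower among all tested genes, 8 of 17 further IFT and motor genes were higher and 3 lower, the largest rise being that of RABL2A (1.39), a small GTPase that binds IFT-B. Of 8 BBSome partners 3 were higher, among them CCDC28B (1.87) and RAB3IP (0.60), the exchange factor for RAB8, and 3 lower, among them RAB8A (-1.06), the GTPase that feeds the ciliary membrane. Of 21 tested transition zone and inversin genes, 5 were higher, with CPLANE1 (0.99) and MKS1 (0.94) first, and 7 lower, with TMEM138 (-1.01) first. Their median of -0.15 was 0.03 when libraries were scaled to their total, and 8 were then higher and 4 lower. That scaling gave 6156 higher and 3955 lower among all 14215 tested genes. SDCCAG8 is listed at 0 in this table and was not tested. Among all lists 6 genes were at 0 in every library, and the transcripts of 3 of them (SDCCAG8, RAB11FIP3 and NDE1) also aligned to an alternate contig of the genome, those of DNAI2, RFX6 and GMNC to none. A gene listed at 0 is not read as absent here, whether or not such a contig was found.

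RFX transcription factors bind an element called the X-box in the promoters of many ciliary genes, and FOXJ1 is the forkhead factor of motile cilia. RefSeq promoter windows (GRCh38.p14, 250 bases before to 50 bases after the annotated start) were present for 28 of the 34 genes, with WDR35, IFT22, TCTN2 and BBS9 among those left. For BBS12, WDR34 and IFT46 the start of the window lies inside the gene span, and other starts of a gene were not searched. The X-box was searched as GTNNCC and GGNNAC separated by 1 to 3 bases (GTNNCCNGGNNAC, GTNNCCNNGGNNAC or GTNNCCNNNGGNNAC), which reads the same on both strands. It was found in 6 of the 28 windows (21.4%) and in 3.87% of all 11130 windows of tested genes. The matches are printed in capitals, on the strand of the gene, because ciliary promoters are known for this element.
B9D1 (chr17:19378085-19378114, minus strand, 193 bases before the start): ctgggactGTTACCTTGGCTACtggctccc
IFT122 (chr3:129440205-129440234, plus strand, 12 bases before the start): catgtacGTTGCCAGGGGTAACgcaggtag
IFT57 (chr3:108222433-108222462, minus strand, 30 bases before the start): ggagtctaGTTTCCCTGGTGACggattgtc
IFT57 (chr3:108222406-108222435, minus strand, 3 bases before the start): gtccggtgGTCGCCTGGTAACcggtcgtgg
TCTN1 (chr12:110614121-110614150, plus strand, beginning at the start): ctgtcgcgGTTGCCGGGCAACgcgctgtcc
TCTN3 (chr10:95694121-95694150, minus strand, 215 bases before the start): cactgacgGTTGCCAGGCAACggaggcacg
WDR19 (chr4:39182458-39182487, plus strand, 63 bases before the start): ctcgcgcgGTCTCCTGGGTGACgggaacgc

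WDR19 combined an X-box with one of the largest rises, and the 250 bases before its start (chr4:39182279-39182528, plus strand) are printed with the X-box in capitals.
WDR19 promoter: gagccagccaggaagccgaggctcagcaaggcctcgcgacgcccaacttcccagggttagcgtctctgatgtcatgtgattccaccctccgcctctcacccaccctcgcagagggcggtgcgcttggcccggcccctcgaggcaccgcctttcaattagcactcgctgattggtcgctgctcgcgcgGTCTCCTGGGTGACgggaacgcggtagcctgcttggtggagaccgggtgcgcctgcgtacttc

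Genes with and without an X-box were found on both sides of the threshold, and the difference was not tested. The counts that follow are to be read against 35.3% higher among all tested genes. Of the 6 genes with a match, WDR19, TCTN1 and IFT57 rose and IFT122, TCTN3 and B9D1 did not pass the test, with a median log2FC of 0.25. Of the 22 genes with a window and no match 13 rose, with a median of 0.53, IFT140 and BBS1 among them. The shorter RFX word GTTGCC, on either strand and overlapping the X-box in IFT122, TCTN1 and TCTN3, was found in 12 windows (42.9%, against 12.8% of all windows), and 6 of these 12 genes rose. The forkhead word TGTTTAC, on either strand, was found in 1 window, that of IFT20 (2.31% of all windows). A match is a stretch of letters and not a measured binding site.

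Among the RFX genes, RFX3, a regulator of ciliary genes, had a signal of 362, 346 and 289 in DMSO and 722, 771 and 693 with erlotinib, and RFX1 of 625, 526 and 698 against 1135, 1113 and 1167. Both rose without overlap, by 1.13 and 0.89 on the log2 scale. RFX5 rose by 0.28 and RFX7 had a log2FC of -0.26 (adjusted p = 0.0139, limma), and RFX2 one of -0.35 that missed the threshold (adjusted p = 0.0526, limma). RFX4 was too low to be tested, and RFX6 was at 0 in every library. FOXJ1 had a signal of 2.27, 1.86 and 0 in DMSO and 159, 145 and 142 with erlotinib, and MYB, which acts early in multiciliated cells and also in proliferation, fell by 2.07 on the log2 scale. Of the 10 tested RFX and multiciliogenesis regulators 5 were higher and 3 lower (beside 35.3% and 35.4% of all tested genes), with a median of 0.03, and 1 was lower when libraries were scaled to their total (median 0.21) or at an adjusted p under 0.01.

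Markers of the ciliated airway cell, whose many cilia beat, moved with the primary cilium genes. Of 20 such markers 14 were tested, 12 of which were higher, 1 lower (DNAH11, -0.37) and 1 neither (beside 35.3% higher and 35.4% lower of all tested genes), with a median log2FC of 2.08. Their summed signal was 1098, 1189.6 and 1045 in DMSO and 3179, 2968 and 3767 with erlotinib. DNAH5, a heavy chain of the outer dynein arm, was the most abundant (369, 435 and 304 against 1667, 1507 and 2251). CAPS gave 17.0, 31.6 and 27.8 against 322, 297 and 329, and ZMYND10, which assembles dynein arms, gave 4.54, 4.64 and 1.07 against 126, 85.1 and 106. DNAI2, a defining intermediate chain of that arm, was at 0 in all 6 libraries, and the others not tested (DNAH9, TEKT1, TEKT2, SPAG6 and SNTN) had mean signals of at most 6.55 in either group. The part of these markers in the rise of the primary cilium genes was not tested.

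The 12 proliferation genes all fell (beside 35.4% of all tested genes), with a median log2FC of -2.83. MKI67 had a signal of 11887, 11225 and 10567 in DMSO and 1614, 1555 and 1797 with erlotinib, and RRM2, a subunit of ribonucleotide reductase, had the largest fall of the list (-4.14). TOP2A was the most abundant, and the summed signal of the list was 61179.8, 66309.9 and 60789.9 in DMSO and 9329, 9153 and 8978 with erlotinib. The part of the fall in proliferation genes was not tested either. Of 6 fibroblast markers only COL1A1 was high enough to test (1.47), and COL1A2, COL3A1, DCN and PDGFRA had at most 3 reads in any library. The summed signal of the fibroblast markers was 73.7, 75.2 and 104 in DMSO and 258, 223 and 212 with erlotinib. Of 5 leukocyte markers CD68, a lysosomal protein that other cells also make, was the most abundant and rose by 0.23. CD79A, a component of the B cell receptor and the other marker tested, had a signal of 17.0, 14.9 and 21.4 in DMSO and 14.8, 1.98 and 8.42 with erlotinib (log2FC -1.28, adjusted p = 0.0739, limma). The summed signal of the leukocyte markers, nearly all of it from CD68, was 2794, 2809 and 3176 in DMSO and 3253, 3537 and 3472 with erlotinib. The part of these markers was not tested.

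Genes that take the cilium down moved in both directions. Of 9 tested, 5 were lower and 3 higher (beside 35.4% and 35.3% of all tested genes), with a median of -0.998. AURKA, the kinase that starts disassembly, had a signal of 3227, 3410.1 and 3223 in DMSO and 529.7, 565 and 526 with erlotinib, and PLK1 one of 2380.0, 2116 and 2394 against 374, 361 and 399. Both kinases also act in mitosis, and the log2FC was -2.60 for each. KIF24, which trims centriolar microtubules, fell by 1.94. NEDD9, the activator of AURKA at the cilium, went the other way, from 95.3, 79.9 and 121 to 646, 703 and 816, a rise of 2.87. NDE1 is listed at 0 and was not tested.

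Genes of the distal appendages and of cilium initiation were mostly lower, 9 of 14 tested against 4 higher, with a median of -0.57 (all tested genes were 35.4% lower and 35.3% higher). The 4 higher became 1 without erlotinib library 6 and 2 without DMSO library 1. SCLT1, an appendage protein that docks the centriole to the membrane, had a signal of 539, 668 and 481 in DMSO and 150.4, 150.5 and 188 with erlotinib (log2FC -1.77, adjusted p = 6.2e-10, limma). CCP110, the cap that must leave the centriole before a cilium can grow, fell by 0.83 and KIAA0586 (also TALPID3) by 0.77, whereas OFD1 rose by 0.84. RAB11FIP3 is listed at 0. The direction in this list was thus opposite to that of most IFT and BBS genes, although the difference between the lists was not tested.

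Of 14 tested ciliary membrane and lipidated cargo genes 4 were higher and 5 lower (beside 35.3% and 35.4% of all tested genes), with a median of 0.09. When libraries were scaled to their total, 7 were higher and 3 lower, beside 6156 higher and 3955 lower among all 14215 tested genes. ADCY3, the adenylyl cyclase of neuronal cilia (-1.46), and KIF7, a kinesin of the ciliary tip (-1.28), were lower. INPP5E, a phosphatase that acts on the lipids of the ciliary membrane, rose by 0.56, and CYS1, a lipid-anchored ciliary protein, had a signal of 2.27, 0 and 2.14 in DMSO and 40.6, 42.6 and 39.3 with erlotinib.

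The Hedgehog pathway signals through the primary cilium in vertebrates. Of its 16 genes only 9 were high enough to test, of which 6 were higher and 1, GLI2, whose groups overlapped (adjusted p = 0.0496, limma), was lower (beside 35.3% and 35.4% of all tested genes), with a median of 0.95. The GLI2 call was lost under 11 of the 16 alternatives, among them edgeR, DESeq2 and libraries scaled to their total. The receptor PTCH1 gave 112, 103 and 137 in DMSO and 306, 260.4 and 301 with erlotinib (log2FC 1.30, SE 0.16, adjusted p = 3.45e-07, limma). GLI3 (1.65), DISP1 (1.43) and EVC (0.95) were higher as well. SMO, the transducer of the pathway, had at most 3 reads in any library, and so had GLI1, HHIP, EVC2 and IHH.

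**Figure D5:**
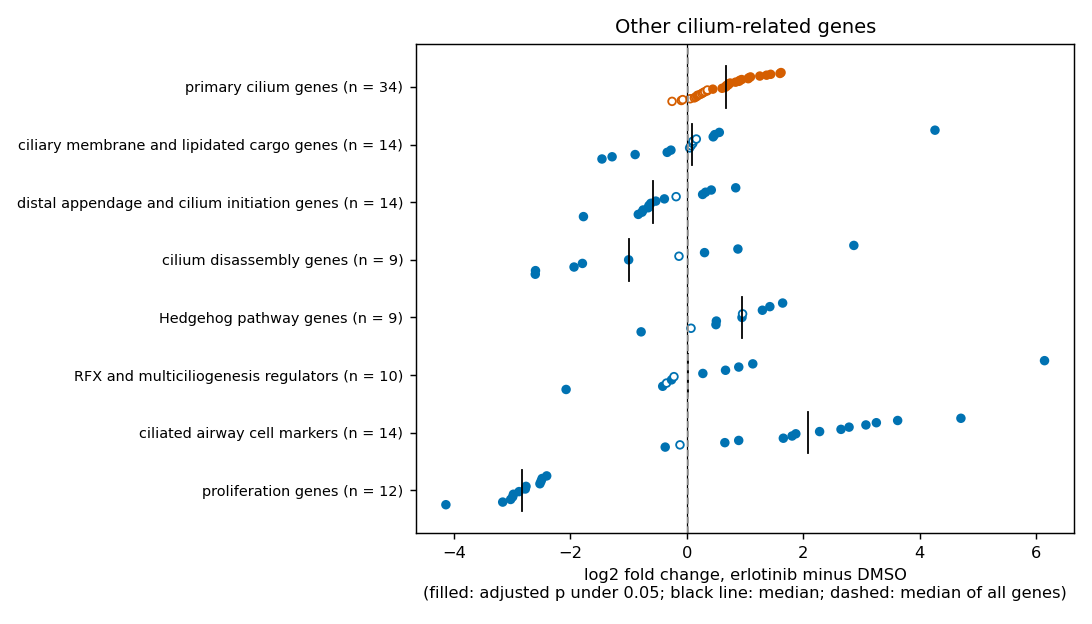
Log2FC (erlotinib minus DMSO) of the 34 primary cilium genes and of the tested genes of 7 other lists, filled where the adjusted p was under 0.05, with a line at each median and a dashed line at the median of all genes. The medians run from -2.83 (proliferation) to 2.08 (ciliated airway cell markers), with the primary cilium genes at 0.67 and the distal appendage genes at -0.57.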

How the data were processed

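RNA-seq was analysed for 6 libraries of HCC827 cells, 3 per condition. The authors mapped reads to GRCh38 with Bowtie2 2.3.4, an aligner without spliced alignment, and counted them per gene with featureCounts 1.6.3. The submitters' processing notes also name DESeq2 1.18.1. The deposited signal values are reads divided by 1 size factor per library (0.882 to 1.08), since 100% of the values came out as whole reads, within 0.01, once multiplied by it. The division and the strand of counting are not stated in the paper's text. No column per sample was left unused (0), and the 475 genes that lack a symbol stayed in under the Entrez identifier. The erlotinib columns are numbered 4 to 6 and were used as a group.

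limma 3.58.1 with a variance trend was fitted to log2(signal + 1) for 14215 genes, those whose mean signal reached 10, two-sided, with Benjamini-Hochberg adjustment over all of them and a threshold of 0.05. On simulated data limma recovered 86 of 98 genes changed by 1 log2 unit and 98 of 99 changed by 2, and 3.66% of its calls were false. Those data held 13684 tested genes, few of them changed, and were scaled by the same size factors that drew the counts. In the real data 70.7% of tested genes were called, so the simulation does not give the share of false calls there. Lists are described by counts and medians. Values in every library are given for the largest rise and the largest fall of each class, for every gene past the threshold by at least 1 log2 unit, and for other genes where a sentence turns on them. In the other lists up to 4 genes past the threshold with the largest change are named, plus FOXJ1, RFX genes, SMO, GLI1, AURKA, PLK1 and MKI67, and further genes named there were chosen after their values were seen. Some genes that these rules cover are not reported here. The genes and lists were chosen with earlier results of these data known.

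Transcript lengths came from GENCODE release 44 (canonical transcripts), positions and promoters from RefSeq (GRCh38.p14), and second places in the genome from minimap2 2.31-r1302. The alternatives were edgeR 4.0.16, DESeq2 1.42.0 and limma-voom on the recovered reads, libraries scaled to their total, TMM factors in limma, no filter, at least 10 reads in every library, pseudocounts of 0.1 and 10, an adjusted p under 0.01, and each library left out in turn. The software was R 4.3.3, Python 3.11.15, pandas 2.3.3 and matplotlib 3.10.9.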

Additional observations from a re-analysis of the deposited data

How the results depend on the processing

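Over 16 alternatives, 20 of the 34 primary cilium genes kept both direction and side of the threshold, and 509 of 544 values did so in all. The number called higher ran from 19 (adjusted p under 0.01, or without erlotinib library 4) to 29 (libraries scaled to their total), and from 19 to 23 with 1 library left out. The number called lower was 0, except 1 with TMM factors in limma (BBS7) and 0 to 1 with 1 library left out (WDR34 without DMSO library 2, BBS7 without DMSO library 3). With 1 library left out, the log2FC of IFT74 ran from -0.13 to 0.16 (negative without DMSO library 3 or erlotinib library 4) and that of IFT20 from -0.26 to 0.15 (positive without erlotinib library 6). Scaled to the total, IFT20 was at 0.11 and WDR34 at 0.086. Over all tested genes 4323 to 6156 were higher and 3955 to 5140 lower.

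Scaling to the total gave 8 higher and 4 lower transition zone genes, 7 higher and 3 lower ciliary membrane genes, 0 lower Hedgehog genes and 1 lower RFX or multiciliogenesis regulator. Under that scaling 6156 of all 14215 tested genes were higher and 3955 lower. An adjusted p under 0.01 gave 4 lower transition zone genes, 2 higher distal appendage genes, 0 lower Hedgehog genes and 1 lower regulator. Without 1 library, 1 to 4 distal appendage genes were higher, 1 without erlotinib library 6 and 2 without DMSO library 1, and 0 to 1 Hedgehog genes lower, 0 without DMSO library 1 or 3 or erlotinib library 4 or 5. The 1 lower Hedgehog gene, GLI2, also became 0 with edgeR, DESeq2, limma-voom, no filter and a pseudocount of 0.1. The causes were not tested. No paired analysis was possible because the erlotinib columns are numbered 4 to 6 and the labels number those samples 1 to 3. The number of libraries (3 per group) and, for IFT88, a count as low as 29 reads limit the precision.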
